A study of Mus musculus with 12 samples.

Results

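The comparison described is wild type against progesterone receptor null mammary gland after 8 h of progesterone, on 6 of the 12 expression arrays of the series. Its members were chosen by array title, 3 arrays of each genotype, and all 45037 probe sets that are not controls entered. Both groups were BALB/c females of 10 weeks whose ovaries had been removed. For 24 h they were given 17β-estradiol alone (100 ng), followed by 8 h of 17β-estradiol together with progesterone (2.5 ug). The wild type group carried the intact receptor gene and the null group lacked a working progesterone receptor, through an allele that the labels do not describe. Each array held mammary gland RNA from a pool of 3 mice, and the labels call the pools biological replicates. The remaining 6 arrays were the same genotypes after 24 h of progesterone. No group went without progesterone, so a response to 8 h of the hormone cannot be told apart from a difference that the genotypes had before it. The labels give BALB/c for both genotypes but neither a substrain nor whether the wild type mice were littermates of the null mice. A difference of strain background therefore cannot be told apart from loss of the receptor in any value of wild type minus null. The series asked which mammary genes need the receptor to respond to acute progesterone.

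Progesterone binds a nuclear receptor, encoded by Pgr, that acts as a transcription factor. In the mammary gland the receptor is made in a fraction of the luminal epithelial cells, and its own transcription is raised by estrogen. Receptor-positive cells release signals such as RANKL (Tnfsf11) and Wnt4 that act on neighbouring cells and drive side branching and alveolar budding. The tissue on these arrays also held fat, stroma, vessels, immune cells and some muscle, and in such bulk RNA fewer cells of a type and less RNA per cell cannot be told apart.

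All values are levels on a log2 scale, as judged from their range since the labels give neither scale nor base. They are given pool by pool, and where values are set against each other the 3 wild type pools come before the 3 null pools. Pools of the same number were not taken as pairs across the genotypes. A fold is 2 to the power of the difference between group means, and SE is its standard error on the log2 scale. Tested were the 23709 probe sets that exceeded the median of an array on 3 or more of the 12 arrays. A call means an adjusted p below 0.05 in limma's moderated test, with the Benjamini-Hochberg method applied across all of them. Each of 12004 genes was represented by its brightest tested probe set. Every adjusted p is from that fit unless another is named. In that fit 16.3% of all tested genes had an unadjusted p under 0.05, the share to set beside each such count below. Called were 1.59% of all tested genes as higher in wild type and 1.42% as higher in null. These are the shares to set beside each list's count of calls.

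The luminal keratins Krt8 (10.50 to 11.37) and Krt18 (10.50 to 11.12), the epithelial adhesion gene Epcam (10.54 to 10.91), the basal keratin Krt14 (8.01 to 9.60) and the adipocyte genes Adipoq (14.05 to 14.28) and Lpl (14.17 to 14.26) were measured in all 6 pools, so epithelium and fat were present in each. The arrays correlated at 0.985 to 0.993 within wild type and 0.980 to 0.989 within null, against 0.966 to 0.980 between the genotypes. The test called 729 probe sets (3.07%), with 364 of them above null in wild type (1.54%) and 365 below (1.54%). Of 12004 genes 361 were called (3.01% of those tested), 191 higher in wild type (1.59%) against 170 in null (1.42%). Their median fold was 1.62, from 1.20 to 18.2. More than 2-fold lay 45 genes in favour of wild type and 52 in favour of null, and more than 4-fold 10 and 19. The pools of the genotypes did not overlap in any called gene, which also held for 24.9% of all genes tested. The count of called probe sets fell to 320 when wild type pool 1 was left out, to 367 for wild type pool 2, to 366 for null pool 2 and to 433 for null pool 3. Called whichever of the 6 pools was left out were 140 genes, 76 higher in wild type and 64 in null.

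**Figure D1:**
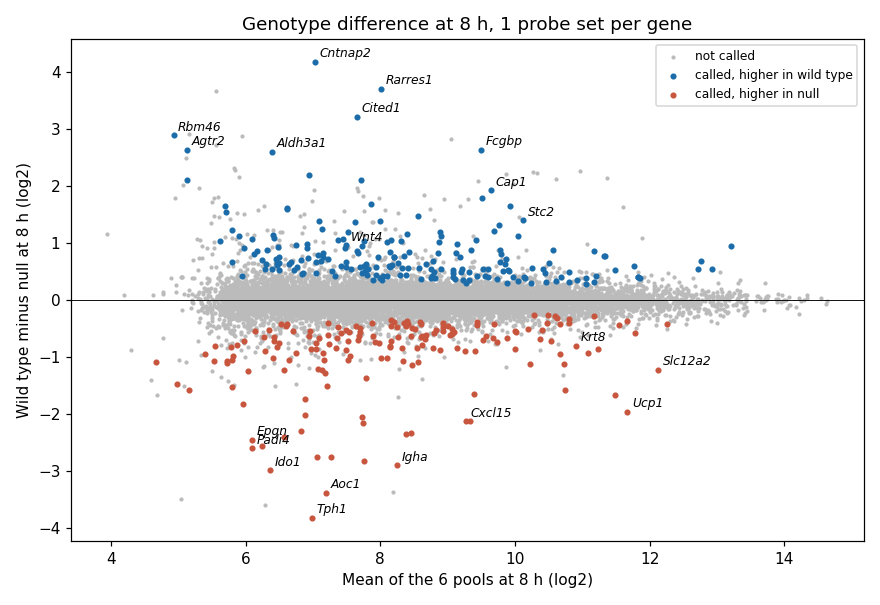
Each point is 1 of 12004 genes by its brightest probe set, with the mean level of the 6 pools at 8 h (log2) on the horizontal axis and wild type minus null (log2) on the vertical axis. Blue points were called higher in wild type (191 genes) and red points higher in null (170 genes), and the called differences run from -3.83 for Tph1 to 4.19 for Cntnap2.

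The wild type pools at 8 h stood apart from the other 9 arrays of the series, null and wild type at 24 h included, in 7.66% of all tested genes. The null pools at 8 h stood apart from the 9 others in 2.71%. Among the 361 called genes the wild type 8 h pools stood apart in 192 (53.2%) and the null 8 h pools in 79 (21.9%). The pools of the genotypes were also separate at 24 h, in the same direction, in 196 of the 361 (54.3%). Of all 12004 tested genes 2983 were separate at 8 h, and 699 (5.82% of all) were separate at both times in the same direction. In 126 of the 361 (34.9%) all 6 wild type pools lay apart from all 6 null pools, against 2.40% of all tested genes. Every called gene was separate at 8 h, so the shares of called genes given here are raised by that choice. A gene can fall under more than 1 of these counts. Of the 191 genes higher in wild type, 178 kept the same sign at 24 h and 39 were called there in the same direction. Of the 170 higher in null, 147 kept the sign and 21 were called. At 24 h 1.3% of all tested genes were called.

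The targeted gene comes first. The brightest Pgr probe set read 10.01, 9.89 and 9.94 in wild type and 9.07, 8.56 and 9.04 in null (2.08-fold, SE 0.19, adjusted p = 0.012). All null pools lay below all wild type pools, though well above the array medians of 5.84 to 5.91. Its call was lost once wild type pool 1 (adjusted p = 0.061) or null pool 2 (0.056) was left out. A second Pgr probe set read 4.97, 4.62 and 5.02 in wild type and 6.79, 6.81 and 6.93 in null, so that here the null pools were the higher ones (3.92-fold, SE 0.16, adjusted p = 6e-05). Where these probes lie relative to the null allele is not known here, and Pgr signal therefore checks the genotype labels only in part. Of the 20 tested genes nearest to Pgr on its chromosome, 10 on either side, 0 were called in favour of wild type and 1 in favour of null. Over all tested genes these shares were 1.59% and 1.42%, so a single call among 20 genes is weak evidence of a local effect. The median difference of the 20 was 0.05. The called neighbour was Cfap300, a gene of cilia and flagella, at 5.74, 6.01 and 6.12 in wild type and 6.95, 7.39 and 7.24 in null (2.35-fold, SE 0.15, adjusted p = 0.001). It was also higher in null at 24 h (2.01-fold, adjusted p = 0.007).

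The promoter sequences of the 3 largest differences in each direction are shown, since these genes open the results and receptor motifs can be looked for in them. They are the 250 bases before the first listed start of each gene in RefSeq (build GRCm38.p6), 5′ to 3′ on the gene's strand. Ido1 and Igha, the third and the fourth among genes higher in null, had no entry and are replaced by Jchain. Capitals mark the letters TATAAA on either strand. The genes higher in wild type were Cntnap2 at chr6:45059811-45060060 (plus strand), Rarres1 at chr3:67515524-67515773 (minus strand) and Cited1 at chrX:102252182-102252431 (minus strand):
Cntnap2: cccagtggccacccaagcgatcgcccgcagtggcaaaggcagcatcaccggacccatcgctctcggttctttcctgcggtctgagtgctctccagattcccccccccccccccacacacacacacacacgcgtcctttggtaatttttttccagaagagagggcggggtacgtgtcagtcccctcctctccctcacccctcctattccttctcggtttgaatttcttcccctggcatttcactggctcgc
Rarres1: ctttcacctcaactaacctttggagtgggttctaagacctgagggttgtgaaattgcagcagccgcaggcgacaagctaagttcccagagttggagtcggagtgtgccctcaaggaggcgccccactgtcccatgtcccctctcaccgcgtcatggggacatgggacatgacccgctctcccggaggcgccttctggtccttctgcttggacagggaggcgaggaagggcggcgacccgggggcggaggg
Cited1: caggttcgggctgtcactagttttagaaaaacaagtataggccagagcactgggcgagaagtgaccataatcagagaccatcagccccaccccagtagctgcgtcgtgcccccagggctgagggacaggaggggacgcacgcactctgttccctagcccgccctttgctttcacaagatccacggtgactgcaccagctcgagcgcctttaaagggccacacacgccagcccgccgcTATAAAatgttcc
The genes higher in null were Tph1 at chr7:46672538-46672787 (minus strand), Aoc1 at chr6:48895005-48895254 (plus strand) and Jchain at chr5:88527898-88528147 (minus strand):
Tph1: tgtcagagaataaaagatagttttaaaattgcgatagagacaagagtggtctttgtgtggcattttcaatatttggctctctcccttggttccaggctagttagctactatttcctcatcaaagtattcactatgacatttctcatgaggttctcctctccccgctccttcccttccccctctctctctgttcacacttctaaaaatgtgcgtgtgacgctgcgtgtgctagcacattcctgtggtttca
Aoc1: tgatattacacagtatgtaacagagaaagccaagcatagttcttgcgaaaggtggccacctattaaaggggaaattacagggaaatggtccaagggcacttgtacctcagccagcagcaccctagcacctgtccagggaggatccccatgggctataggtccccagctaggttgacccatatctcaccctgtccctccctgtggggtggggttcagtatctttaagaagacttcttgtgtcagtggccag
Jchain: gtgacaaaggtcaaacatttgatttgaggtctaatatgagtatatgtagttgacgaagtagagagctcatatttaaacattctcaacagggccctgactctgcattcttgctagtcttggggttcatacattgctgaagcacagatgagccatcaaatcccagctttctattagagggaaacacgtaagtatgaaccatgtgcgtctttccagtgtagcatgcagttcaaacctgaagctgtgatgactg
The letters TATAAA were in the Cited1 window, close to its 3′ end, and in none of the other 5. In all they were in 8.00% of the 150 windows of genes higher in wild type, 7.44% of the 121 of genes higher in null and 6.81% of the 9636 windows of tested genes. The palindrome that steroid receptors of this class bind, searched as GNACA and TGTNC with 3 bases between, was in 0 of the 150, 0 of the 121 and 26 of the 9636 windows (0.270%). The shorter TGTTCT, on either strand, whose letters can overlap that palindrome's right arm, was in 16 of 150 (10.7%), 15 of 121 (12.4%) and 1035 of 9636 (10.7%), and in none of the 6 printed. The estrogen receptor palindrome, GGTCA and TGACC with 3 bases between, was in 0 of the 9636, and in 17 of the 27025 windows of all listed genes (0.0629%). Either palindrome reads the same on both strands. These windows hold only sequence next to the start, and nothing was measured of binding there.

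The genes highest in wild type relative to null included a transcriptional co-regulator, membrane receptors and secreted mucosal proteins. Cntnap2, an adhesion protein of the neurexin family, read 9.08, 9.18 and 9.13 in wild type and 6.29, 4.01 and 4.51 in null. The null pools spread widely and all lay below wild type (18.2-fold, SE 0.44, adjusted p = 0.00049). Its second probe set gave 6.12, 6.29 and 6.05 against 3.79, 3.20 and 3.26, also higher in wild type (6.68-fold, adjusted p = 7.7e-05). Rarres1, a membrane protein first found as a retinoid-induced gene, read 9.63, 9.96 and 10.01 against 7.08, 6.11 and 5.28 (13.1-fold, SE 0.47, adjusted p = 0.0015). Null pool 1 was the nearest to wild type in both genes, and no pool crossed over.

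Cited1, a co-activator of estrogen receptor and a marker of receptor-positive luminal cells, read 9.20, 9.26 and 9.33 in wild type and 6.76, 5.46 and 5.89 in null. The wild type pools were tight and every null pool was lower (9.35-fold, SE 0.34, adjusted p = 0.00051). Its relative Cited4 read 7.19, 7.12 and 7.41 against 6.36, 6.09 and 6.35, again without overlap (1.96-fold, SE 0.13, adjusted p = 0.002). Those were the 2 called of 8 tested Cited co-regulators and partners, all 8 of which had a positive difference, with a median of 0.26 against 0.01 over all genes. Of all tested genes 47.4% had a negative difference. The 6 uncalled members of the list ran from 0.02 up to 0.55 for the transcription factor gene Tfap2c (adjusted p = 0.21).

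Agtr2, the angiotensin II type 2 receptor, read 6.59, 5.89 and 6.89 in wild type and 3.73, 3.93 and 3.76 in null. The null pools lay below every array median and the wild type pools near or above it (6.25-fold, SE 0.41, adjusted p = 0.0053). It was the 1 called of 8 tested renin-angiotensin genes. Its uncalled neighbours on that list were mostly lower in wild type, such as the angiotensinogen gene Agt (-0.68, adjusted p = 0.11) and the peptidase gene Mme (-0.50, adjusted p = 0.059).

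Rbm46, an RNA-binding protein best known from germ cells, read 6.05, 6.60 and 6.48 against 3.45, 3.40 and 3.61 (7.43-fold, SE 0.31, adjusted p = 0.00055), and its second probe set also lay higher in wild type (8.23-fold, adjusted p = 0.00018). The null pools of both probe sets, at 24 h as well, lay below the array medians. Rbm46 therefore passed the filter through wild type pools alone, which favoured a higher wild type. Pcp4, a small regulator of calmodulin, read 8.14, 8.04 and 7.93 against 6.07, 5.77 and 5.69 (4.58-fold, SE 0.24, adjusted p = 0.00055). Gm266, a predicted gene, read 5.99, 6.60 and 5.98 against 4.14, 4.0 and 4.09 (4.34-fold, SE 0.27, adjusted p = 0.0015). In each of these the 3 null pools lay close together and below all wild type pools. Ifnz, the interferon known as limitin, read 9.0, 8.70 and 8.58 against 6.66, 6.74 and 6.56 (4.32-fold, SE 0.15, adjusted p = 2.8e-05). It was the only called member of 30 tested interferon response and antigen presentation genes, whose median was 0.14.

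**Figure D2:**
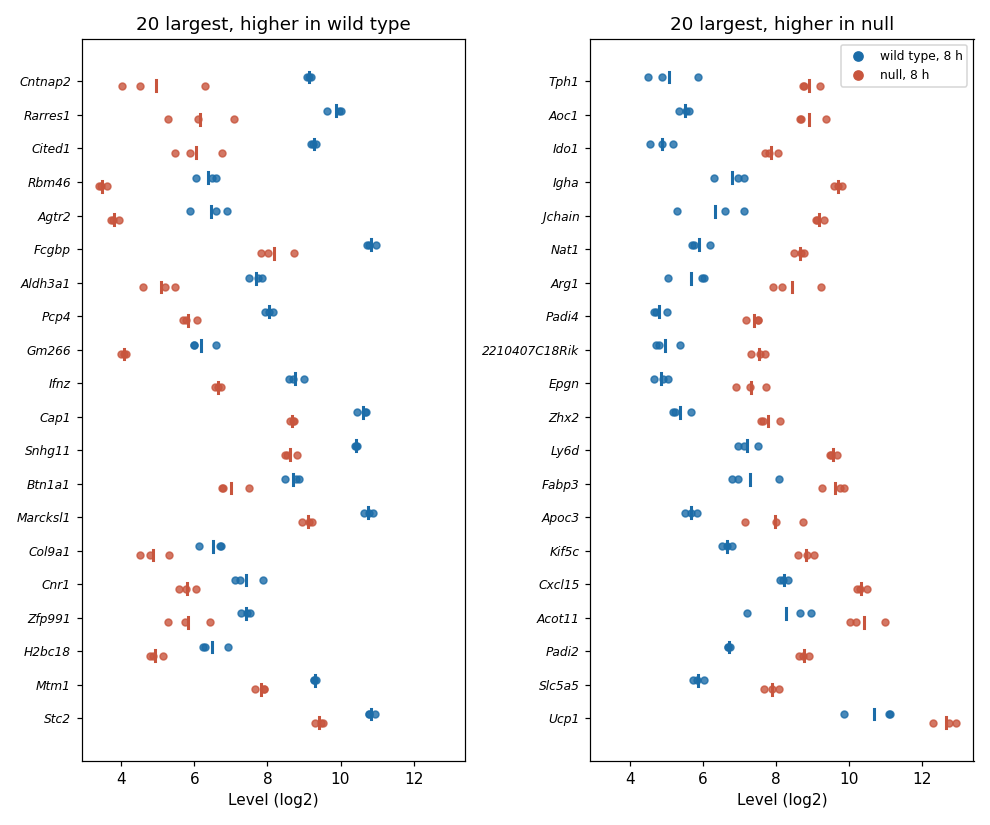
Levels (log2) of the 20 largest called differences in each direction, 1 point per pool of 3 mice, wild type in blue and null in red, with short bars at the group means of 3 pools. In each gene shown the 3 pools of 1 genotype lie apart from the 3 of the other, and the widest spreads within a group are in the null pools of Cntnap2 and the wild type pools of Jchain.

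Further genes higher in wild type covered cytoskeleton, matrix and signalling. Cap1, which binds actin and adenylyl cyclase, read 10.70, 10.66 and 10.46 against 8.69, 8.62 and 8.72 (3.81-fold, SE 0.20, adjusted p = 0.00039). Marcksl1, another actin-linked protein, read 10.87, 10.64 and 10.77 against 9.14, 8.94 and 9.22 (3.16-fold, SE 0.27, adjusted p = 0.0069). Snhg11, a non-coding host of small nucleolar RNAs, read 10.38, 10.45 and 10.42 against 8.49, 8.82 and 8.55 (3.49-fold, SE 0.23, adjusted p = 0.0016). Second probe sets of Cap1 (2.79-fold) and Snhg11 (3.24-fold) were called in the same direction. Col9a1, a chain of collagen IX (3.14-fold, SE 0.25, adjusted p = 0.0043), Cnr1, the cannabinoid receptor (3.08-fold, SE 0.22, adjusted p = 0.0026), and Mtm1, a phosphoinositide phosphatase (2.77-fold, SE 0.19, adjusted p = 0.0019), were also higher without overlap. So were Tfcp2l1, a transcription factor of ducts (2.64-fold, SE 0.16, adjusted p = 0.00068), Tpmt, a thiopurine methyltransferase (2.60-fold, SE 0.13, adjusted p = 0.00023), and Slc44a4, a choline transporter-like protein (2.38-fold, SE 0.18, adjusted p = 0.0035). Col9a1 passed the filter through the wild type pools at 8 h alone, so a tested Col9a1 had to be higher there. Those of the 30 largest not described here or further on lay between 2.24-fold (Acot1, an acyl-CoA thioesterase) and 3.02-fold (Zfp991, a zinc finger gene). Tst, the sulfurtransferase rhodanese, was among them (2.32-fold, adjusted p = 0.041), and its call was lost whichever pool other than null pool 1 was left out (adjusted p 0.099 to 0.17).

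The largest differences toward null included single enzymes of tryptophan, polyamine and arginine metabolism. Called higher in null were 2 of 12 and 3 of 20 tested genes of these lists, against 1.42% of all tested genes. The lists were chosen with earlier results of these data known, so these counts are not independent evidence. Tph1, which starts serotonin synthesis from tryptophan, read 4.87, 4.49 and 5.86 in wild type and 9.20, 8.73 and 8.78 in null. The wild type pools lay near or below the array medians and all null pools far above them (14.2-fold, SE 0.38, adjusted p = 0.0003). Ido1, which degrades tryptophan toward kynurenine, read 4.55, 5.18 and 4.90 against 8.07, 7.80 and 7.71, and every null pool was higher (7.92-fold, SE 0.18, adjusted p = 9.3e-06). The wild type pools of Ido1, at 24 h as well, all lay below the array medians. Ido1 therefore passed the filter through null pools alone, which favoured a higher null. Tph1 and Ido1 were the 2 called of 12 tested tryptophan and serotonin genes, and the median of the 12 was -0.12. Tph1, which is on that list as well, was the 1 called of 12 tested prolactin receptor and STAT5 genes. The serotonin transporter gene Slc6a4 lay lower in wild type (-0.42, adjusted p = 0.4) and the tryptophanyl-tRNA synthetase gene Wars higher (0.35, adjusted p = 0.055), neither called.

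Aoc1, the diamine oxidase that breaks down histamine and putrescine, read 5.36, 5.62 and 5.54 in wild type and 9.36, 8.65 and 8.67 in null. The groups lay far apart (10.5-fold, SE 0.36, adjusted p = 0.00051). Its wild type pools, at 24 h as well, all lay below the array medians. Aoc1 therefore passed the filter through null pools alone, which favoured a higher null. Arg1, the liver-type arginase, read 5.05, 6.02 and 5.99 against 7.92, 8.17 and 9.23, spread within both groups but separate (6.74-fold, SE 0.35, adjusted p = 0.0014). Its mitochondrial counterpart Arg2 went the other way, at 7.32, 7.57 and 7.5 against 7.08, 6.58 and 6.68 (1.61-fold, SE 0.15, adjusted p = 0.03). The call of Arg2 was lost whichever pool other than null pool 1 was left out (adjusted p 0.064 to 0.13). With Slc7a2, a transporter of arginine and other cationic amino acids that was higher in null (1.85-fold, SE 0.16, adjusted p = 0.012), they were the 4 called of 20 tested arginine and polyamine genes, whose median was 0.03. Slc7a2 also stands on the list of estrogen responsive genes and lost its call once wild type pool 1 or 2 or null pool 3 was left out (adjusted p 0.051 to 0.065).

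Of 5 peptidylarginine deiminases, enzymes that turn arginine residues of proteins into citrulline, 2 passed the filter, and both were called higher in null. Padi4 passed it through the null pools at 8 h alone, the 9 other arrays lying below their medians, so a tested Padi4 had to be higher there. Padi4 read 4.73, 4.66 and 5.01 against 7.18, 7.5 and 7.51 (6.06-fold, SE 0.24, adjusted p = 0.00018). Padi2 read 6.69, 6.74 and 6.69 against 8.74, 8.62 and 8.91 (4.14-fold, SE 0.15, adjusted p = 4.2e-05). The null pools at 8 h stood apart from the 9 other arrays in both genes, which the filter fixed for Padi4. At 24 h the genotypes lay 1.25-fold and 1.24-fold apart (adjusted p = 0.61 and 0.41). The change between the times was called for both (adjusted p = 0.013), as for 0.133% of all tested genes. For Padi4 the filter also favoured that change, so it is no separate support. Epgn, the growth factor epigen that binds the EGF receptor, also passed the filter through the null pools at 8 h alone. It stood at 4.66, 4.91 and 5.03 in wild type and 6.91, 7.30 and 7.74 in null (5.46-fold, SE 0.19, adjusted p = 4.8e-05). It was the 1 called of 11 tested EGF family ligands and ErbB receptors, among which betacellulin, Btc, lay lower in wild type (-0.63, adjusted p = 0.069) and Erbb3 higher (0.45, adjusted p = 0.053).

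**Figure D3:**
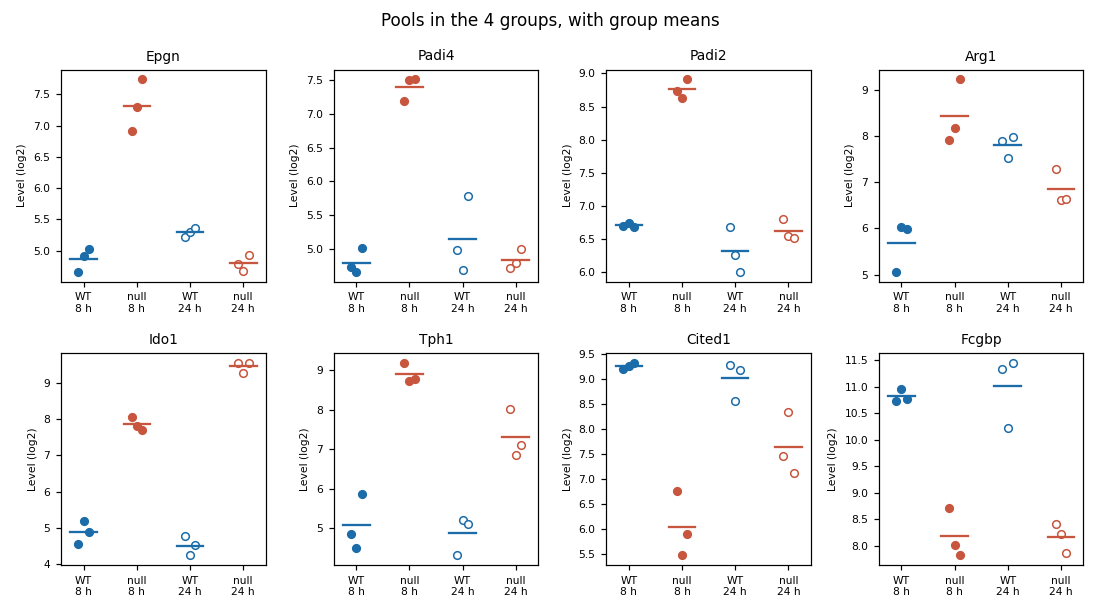
Levels (log2) of 8 genes in the 4 groups, 1 point per pool, with bars at group means, wild type in blue, null in red, 8 h filled and 24 h open, and a separate vertical scale in each panel. For Epgn, Padi4 and Padi2 the null pools at 8 h lie above all other pools, whereas for Ido1, Tph1, Cited1 and Fcgbp the genotypes are separate at both times. Epgn and Padi4 passed the filter through those null pools alone, so the pattern was fixed for them. Ido1 passed it through null pools alone, all its wild type pools lying below the array medians.

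Of 20 tested solute carriers with roles in secretory epithelium 4 were called higher in null and 1 higher in wild type. The shares over all tested genes were 1.42% and 1.59%. Of the 20 differences 10 were positive and 10 negative, and the median was -0.01. Slc5a5, the sodium iodide symporter, read 5.83, 6.04 and 5.73 against 7.89, 7.67 and 8.09 (4.04-fold, SE 0.15, adjusted p = 3.7e-05). Slc12a2, the sodium potassium chloride cotransporter of basolateral membranes, read 11.51, 11.60 and 11.43 against 12.74, 12.62 and 12.85 (2.34-fold, SE 0.09, adjusted p = 3.7e-05). In both the pools of a genotype lay close together and the null pools were higher. Slc15a2, a peptide transporter, was higher in null (2.09-fold, adjusted p = 0.048) and lost its call whichever pool was left out (adjusted p 0.054 to 0.2). Slc1a5, a glutamine transporter, was higher in wild type (1.71-fold, adjusted p = 0.022) and lost its call whichever pool other than null pool 3 was left out (adjusted p 0.06 to 0.096). Slc7a2, described above, was the remaining call.

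Among other genes higher in null, Nat1, an arylamine N-acetyltransferase, read 5.70, 6.20 and 5.75 against 8.48, 8.78 and 8.68 (6.79-fold, SE 0.26, adjusted p = 0.00025). Zhx2, a repressor of transcription whose level is known to differ between substrains of BALB/c mice, read 5.69, 5.18 and 5.24 against 8.10, 7.59 and 7.64 (5.30-fold, SE 0.21, adjusted p = 0.0001). Apoc3, an apolipoprotein, read 5.69, 5.83 and 5.51 against 8.75, 7.15 and 8.01 (4.90-fold, SE 0.33, adjusted p = 0.0031). In each of these every wild type pool lay below every null pool, and for Zhx2 the part of strain background was not tested. Kif5c, a kinesin motor of neurons, read 6.65, 6.51 and 6.81 against 9.03, 8.60 and 8.84 (4.48-fold, SE 0.16, adjusted p = 4.6e-05). Cxcl15, the chemokine lungkine, read 8.19, 8.10 and 8.33 against 10.22, 10.29 and 10.49 (4.37-fold, SE 0.21, adjusted p = 0.00034). Second probe sets of Kif5c (4.29-fold) and Cxcl15 (4.13-fold) were called in the same direction, and Cxcl15 was the 1 called of 29 tested chemokines and receptors. The little-described 2210407C18Rik read 4.80, 4.71 and 5.37 against 7.30, 7.57 and 7.71 (5.94-fold, SE 0.22, adjusted p = 0.0001). Mtmr7, a phosphoinositide phosphatase, differed less (3.34-fold, SE 0.10, adjusted p = 9.3e-06), while its second probe set was 17.9-fold higher in null (adjusted p = 1.1e-06). Those of the 30 largest not described here or further on lay between 2.43-fold (Lratd1) and 3.55-fold (Ttc6), among them Slc5a8, a monocarboxylate transporter (2.84-fold, adjusted p = 0.0093), and Inmt, a methyltransferase of indoles (2.97-fold, adjusted p = 0.015). Inmt, Mmd2, B330016D10Rik, Aspg and Lratd1 lost their calls without at least 1 pool, with adjusted p of 0.051 to 0.18 in those fits.

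Of 22 mammary progesterone targets, 14 were tested, 2 were called as higher in wild type, 1 as higher in null, and the median of the 14 was 0.24. Cited1 is given above. Wnt4, the ligand of receptor-positive cells, read 8.00, 8.10 and 7.84 in wild type and 7.36, 6.70 and 6.99 in null, with all null pools lower (1.95-fold, SE 0.19, adjusted p = 0.017). Wnt4 fell short of the threshold once wild type pool 1 or 2 or null pool 2 or 3 was left out (adjusted p 0.062 to 0.079). Wnt5a, a ligand of non-canonical signalling, read 8.08, 8.32 and 8.49 against 8.90, 8.88 and 9.02, here with all null pools higher (1.55-fold, SE 0.11, adjusted p = 0.01). Tnfsf11, which encodes RANKL, read 4.23, 5.23 and 4.13 in wild type and 3.54, 3.27 and 3.29 in null. Every wild type pool lay above every null pool, but both groups were below the array medians and the difference was not called (2.23-fold, SE 0.52, adjusted p = 0.31). Elf5, a regulator of alveolar cells, read 9.09, 8.68 and 9.0 against 8.35, 7.93 and 8.23, separate but not called (1.69-fold, SE 0.21, adjusted p = 0.085). Gata3, a luminal regulator, read 8.22, 8.14 and 8.04 against 9.0, 8.50 and 8.88, separate in the opposite direction and not called (1.58-fold, SE 0.19, adjusted p = 0.1). The remaining 8 had differences from -0.04 for Fst and Greb1 to 0.40 for Rspo1, with adjusted p of 0.18 to 0.97, among them Ccnd1 (0.09), Id4 (0.14), Cxcl12 (0.19), Stat5a (0.28) and Myc (0.33). Areg, Calca, Adamts18, Prlr, Lrp2, Ihh, Hand2 and Il13ra2 were not tested. Of 11 tested RANK signalling genes 0 were called by limma, with 2 at an unadjusted p under 0.05.

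Rxra, the partner of retinoid and other nuclear receptors, was besides Pgr the 1 called of 17 tested steroid and nuclear receptors, at 9.09, 8.92 and 9.01 against 8.68, 8.53 and 8.64 (1.31-fold, SE 0.08, adjusted p = 0.02). The call of Rxra was lost once wild type pool 1 or 3 or null pool 2 or 3 was left out (adjusted p 0.054 to 0.11). The estrogen receptor gene Esr1 lay 0.28 (log2) higher in wild type (adjusted p = 0.28) and the vitamin D receptor gene Vdr 0.41 higher (adjusted p = 0.15). Among 19 tested estrogen responsive genes, Pgr, Stc2 and Myb were higher in wild type and Slc7a2 lower, and the median was 0.12. Stc2, a secreted stanniocalcin, read 10.78, 10.77 and 10.94 against 9.47, 9.29 and 9.51 (2.65-fold, SE 0.24, adjusted p = 0.0084). Myb, a transcription factor gene, read 8.80, 8.56 and 8.73 against 7.80, 7.21 and 7.90 (2.08-fold, SE 0.20, adjusted p = 0.013), and its call was lost once wild type pool 1 was left out (adjusted p = 0.068). Of 20 tested glucocorticoid receptor targets, which the progesterone receptor can share, Klf15 was higher in wild type (1.45-fold, adjusted p = 0.025) and the cell cycle inhibitor gene Cdkn1c higher in null, at 8.32, 8.34 and 8.45 against 9.04, 8.88 and 9.05 (1.53-fold, SE 0.11, adjusted p = 0.0086). Their median was -0.10, and the call of Klf15 was lost once wild type pool 2 or 3 or null pool 1 or 2 was left out (adjusted p 0.076 to 0.11). Lif, a cytokine of the interleukin 6 family, read 6.68, 6.55 and 6.63 against 5.98, 5.99 and 5.98 (1.56-fold, SE 0.11, adjusted p = 0.0083) as the 1 called of 11 tested genes of its family. Without wild type pool 1 the adjusted p of Lif was 0.052.

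Of 36 tested WNT ligands, R-spondins and receptors, Wnt4 and Lgr6 were higher in wild type, Wnt5a, Lgr4 and Lgr5 higher in null, and the median was -0.02. Lgr5, a stem cell marker in several epithelia, read 4.89, 4.89 and 5.21 in wild type and 6.23, 5.82 and 6.13 in null (2.09-fold, SE 0.17, adjusted p = 0.0057). Lgr4 was also higher in null (1.34-fold, SE 0.10, adjusted p = 0.041), and Lgr6 was higher in wild type (1.5-fold, SE 0.14, adjusted p = 0.045). Both lost their calls whichever pool was left out, Lgr4 at an adjusted p of 0.056 to 0.18 and Lgr6 at 0.057 to 0.15. Bmp6 was the 1 called of 25 tested TGF-beta, activin and BMP genes, higher in null (1.58-fold, adjusted p = 0.023), and was lost whichever pool other than wild type pool 3 was left out (adjusted p 0.054 to 0.11). No member was called of 17 Notch, 10 Id and helix-loop-helix or 13 IGF genes by limma, with 3, 1 and 3 at an unadjusted p under 0.05. Nor was any of 11 tested steroid metabolizing enzymes called by limma, with 3 at an unadjusted p under 0.05.

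Immediate early transcription factors had 0 called of 18 tested by limma, with 7 at an unadjusted p under 0.05, as for 16.3% of all tested genes. In 7 of the 18 every null pool lay above every wild type pool, as for 11.2% of all tested genes. The growth factor response genes Egr1 (-0.87, adjusted p = 0.15), Egr2 (-1.04, adjusted p = 0.21) and Fos (-0.69, adjusted p = 0.19) had negative differences. Cdkn1c was the 1 called of 20 tested G1 genes, and Gins1, a replication fork subunit, the 1 called of 25 tested replication genes (1.34-fold, SE 0.10, adjusted p = 0.039), higher in wild type. Gins1 lost its call whichever pool was left out (adjusted p 0.081 to 0.16). Of 13 mitosis, 16 clock and 25 heat shock and unfolded protein genes limma called 0, with 1, 3 and 5 at an unadjusted p under 0.05.

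Luminal epithelial genes were called in both directions. Krt8, a keratin of luminal cells, read 10.51, 10.50 and 10.51 in wild type and 11.37, 11.27 and 11.28 in null, nearly equal within wild type and higher in all null pools (1.74-fold, SE 0.11, adjusted p = 0.0032). Its pairing partner Krt18 read 10.50, 10.67 and 10.64 against 11.12, 10.93 and 10.95 (1.31-fold, SE 0.09, adjusted p = 0.039), and that call was lost whichever pool was left out (adjusted p 0.074 to 0.18). The tight junction gene Cldn4 read 8.01, 8.32 and 8.12 against 8.88, 8.75 and 8.69 (1.54-fold, SE 0.10, adjusted p = 0.0069). In the other direction, the protease inhibitor gene Spint1 read 8.25, 8.41 and 8.37 against 7.72, 7.54 and 7.48 (1.69-fold, SE 0.13, adjusted p = 0.0072). Prom2, a membrane protrusion protein of epithelia, read 9.40, 9.51 and 9.48 against 8.49, 8.07 and 8.43 (2.19-fold, SE 0.18, adjusted p = 0.0065). So 2 of 26 tested luminal keratin and adhesion genes rose in wild type against null, 3 fell, with a median of 0.02. Spdef, a factor of secretory epithelium, was the 1 called of 18 tested luminal transcription factors, at 5.99, 6.37 and 6.08 against 5.33, 4.89 and 5.11 (2.06-fold, SE 0.17, adjusted p = 0.0061). Among 16 tested luminal progenitor and alveolar genes Cd24a was higher in null (1.82-fold, adjusted p = 0.021), and its call was lost once wild type pool 1 or 2 or null pool 2 or 3 was left out (adjusted p 0.076 to 0.096).

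Milk and basal genes gave few calls. Btn1a1, butyrophilin of the milk fat globule membrane, read 8.78, 8.48 and 8.87 in wild type and 7.49, 6.79 and 6.75 in null (3.24-fold, SE 0.29, adjusted p = 0.0083). The median over 11 tested milk protein and milk fat globule genes was 0.39, and beside Btn1a1 only Cidea, higher in null, was called. Muc15 (1.00, adjusted p = 0.1) and Csn3 (0.59, adjusted p = 0.26) lay higher in wild type without a call. Of 22 tested basal and myoepithelial genes, Pdpn, podoplanin, was higher in wild type, at 9.38, 9.31 and 9.46 against 8.18, 8.49 and 8.43 (2.02-fold, SE 0.15, adjusted p = 0.0032), and so was Lgr6, while the median was -0.12.

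Mucosal defence proteins included large differences both ways. Fcgbp, a protein of mucus that binds the Fc part of IgG, read 10.73, 10.96 and 10.77 in wild type and 8.71, 8.01 and 7.82 in null, with the lowest wild type pool far above the highest null pool (6.23-fold, SE 0.30, adjusted p = 0.00079). S100a8, a calprotectin subunit of neutrophils and of stressed epithelia, read 8.35, 8.72 and 9.01 against 7.0, 7.66 and 7.26 (2.63-fold, SE 0.23, adjusted p = 0.0075). It was the 1 called of 7 tested neutrophil and mast cell markers. Dmbt1, a scavenger receptor protein of mucosal fluids, was higher in null (2.99-fold, adjusted p = 0.047) and lost its call once wild type pool 1 or 3 or null pool 1 or 2 was left out (adjusted p 0.13 to 0.19). The 3 were the called ones of 18 tested, whose median was 0.14. Of 8 tested acute phase genes, Hp, haptoglobin, was higher in wild type (1.47-fold, adjusted p = 0.012) and Cp, ceruloplasmin, higher in null (1.36-fold, adjusted p = 0.023). Without null pool 2 the adjusted p of Hp was 0.06, and the call of Cp was lost once wild type pool 1 or null pool 1, 2 or 3 was left out (adjusted p 0.052 to 0.1).

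Aldh3a1, an aldehyde dehydrogenase known from the cornea, read 7.51, 7.73 and 7.85 in wild type and 5.47, 5.20 and 4.59 in null (6.10-fold, SE 0.28, adjusted p = 0.00049). Every null pool lay below the array medians and every wild type pool above them. The null pools at 24 h also lay below them. Aldh3a1 therefore passed the filter through wild type pools alone, which favoured a higher wild type. Aldh4a1, the mitochondrial enzyme of proline breakdown, read 8.96, 8.83 and 8.70 against 8.04, 7.65 and 7.66 (2.06-fold, SE 0.12, adjusted p = 0.00092). With Rarres1 these were the 3 called of 24 tested aldehyde dehydrogenase and retinoid genes, all 3 higher in wild type, while the median was 0.00. The retinaldehyde dehydrogenases Aldh1a1 (-0.32, adjusted p = 0.64) and Aldh1a3 (0.43, adjusted p = 0.14) were not called. Among 19 tested conjugating enzymes Nat1 was higher in null and the glutathione transferase gene Gsta3 higher in wild type (1.99-fold, adjusted p = 0.017), which was lost once wild type pool 2 or null pool 1, 2 or 3 was left out (adjusted p 0.052 to 0.067).

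**Figure D4:**
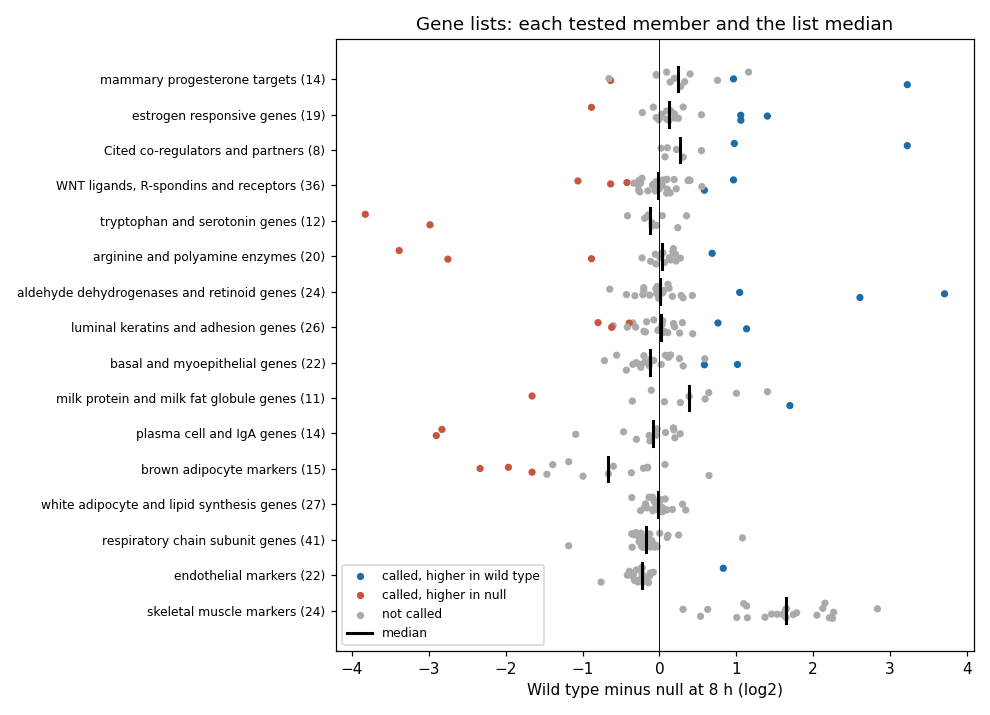
Wild type minus null at 8 h (log2) for each tested member of 16 gene lists, with the number tested in brackets, blue for called higher in wild type, red for called higher in null and grey for not called, and a black bar at the list median. Single members lie far from 0 in lists whose medians are near 0, and the medians farthest from 0 are those of skeletal muscle (1.64) and brown adipocyte markers (-0.67), of which 0 and 3 members were called.

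Of 14 tested plasma cell and IgA genes 2 were called, both higher in null, against 1.42% of all tested genes. Of the 14 differences 9 were negative, against 47.4% of all tested genes. Igha, the IgA heavy chain constant region, read 6.96, 7.12 and 6.31 in wild type and 9.59, 9.71 and 9.80 in null, with null pools close together and wild type pools all lower (7.49-fold, SE 0.32, adjusted p = 0.00055). Jchain, which joins IgA units, read 6.62, 7.13 and 5.29 against 9.13, 9.09 and 9.30 (7.12-fold, SE 0.52, adjusted p = 0.012). The median over the list was -0.08. Sdc1, a surface marker of plasma cells, lay lower in wild type (-0.47, adjusted p = 0.28) and was not called. The mean of the list relative to its gene means was -0.44, -0.35 and -0.88 in the wild type pools and -0.42, 0.08 and 0.17 in the null pools, so the groups overlapped. The T and B lymphocyte list read 0.24, 0.10 and -1.34 against -1.36, -0.22 and -0.03 on the same scale, low in wild type pool 3 and null pool 1, with 0 of 19 called by limma and 1 at an unadjusted p under 0.05. Of 22 tested macrophage and dendritic cell markers limma also called 0, with 1 at an unadjusted p under 0.05. The part of these cells in the difference of Igha and Jchain was not tested.

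Of 15 tested brown adipocyte markers 3 were called, all higher in null, against 1.42% of all tested genes. Each of these 3 calls was lost when certain pools were left out. Ucp1, the uncoupling protein that defines brown and beige fat cells, read 11.08, 11.13 and 9.85 in wild type and 12.93, 12.74 and 12.29 in null (3.91-fold, SE 0.40, adjusted p = 0.022). Cidea, a lipid droplet protein of brown fat, read 11.05, 10.74 and 10.19 against 12.49, 12.53 and 11.93 (3.16-fold, SE 0.32, adjusted p = 0.017). Fabp3, a fatty acid carrier of muscle and brown fat, read 8.10, 6.80 and 6.97 against 9.85, 9.76 and 9.26 (5.04-fold, SE 0.54, adjusted p = 0.042). In all 3 the lowest null pool lay above the highest wild type pool. Of the 15 markers 13 had a negative difference, against 47.4% of all tested genes, with a median of -0.67 at 8 h and -0.54 at 24 h. The list mean was -0.27, -0.48 and -0.89 in the wild type pools and 0.57, 0.30 and -0.03 in the null pools, which did not overlap. Ucp1 lost its call once wild type pool 3 or null pool 1 or 2 was left out (adjusted p 0.059 to 0.085), Cidea once wild type pool 2 or 3 or null pool 1 or 2 was left out (adjusted p 0.056 to 0.078) and Fabp3 whichever pool other than wild type pool 1 was left out (adjusted p 0.081 to 0.16). Acot11, a thioesterase that is high in brown fat, was also higher in null (4.35-fold, adjusted p = 0.015), with an adjusted p of 0.054 without null pool 1. Among 41 tested respiratory chain subunit genes limma called 0, with 15 at an unadjusted p under 0.05, as for 16.3% of all tested genes. Of the 41 differences 36 were negative, against 47.4% of all tested genes, and the median was -0.18. The white adipocyte and lipid synthesis list had 0 called of 27 by limma (2 at an unadjusted p under 0.05) and a median of -0.01. The part of brown fat cells in the differences of Ucp1, Cidea, Fabp3 and Acot11 was not tested.

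Skeletal muscle markers varied widely among the pools. By limma 0 of 24 were called and 4 had an unadjusted p under 0.05, although all 24 had a positive difference and the median was 1.64. Of all tested genes 47.4% had a negative difference. The muscle list mean was 1.46, -0.05 and 0.64 in the wild type pools and 0.30, -2.68 and -0.36 in the null pools. Null pool 2 stood far below the others and null pool 1 above wild type pool 2. Ckm, the muscle creatine kinase, showed it gene by gene, at 12.06, 10.64 and 11.48 in wild type and 10.91, 6.05 and 10.46 in null (4.76-fold, adjusted p = 0.35).

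Endothelial markers had 21 of 22 differences below 0, against 47.4% of all tested genes, and a median of -0.23. In 10 of the 22 every null pool lay above every wild type pool, against 11.2% of all tested genes. The 1 call went the other way: Vwf, von Willebrand factor, read 9.31, 9.47 and 9.83 in wild type and 8.63, 8.73 and 8.76 in null (1.78-fold, SE 0.14, adjusted p = 0.009). Of 38 tested fibroblast and matrix genes, Plod1, a collagen lysyl hydroxylase (1.40-fold, adjusted p = 0.026), and Col15a1, a basement membrane collagen (1.30-fold, adjusted p = 0.045), were higher in wild type, and the median was -0.04. Plod1 lost its call whichever pool was left out (adjusted p 0.056 to 0.1) and Col15a1 whichever pool other than wild type pool 3 was left out (adjusted p 0.086 to 0.19). Keratinocyte genes gave 3 calls of 16 tested, against 3.01% of all tested genes. The transglutaminases Tgm1 (1.81-fold, adjusted p = 0.027) and Tgm3 (1.56-fold, adjusted p = 0.023) were higher in wild type, and Ly6d, a surface protein of stratified epithelia and of B cell precursors, read 6.97, 7.14 and 7.5 in wild type and 9.52, 9.66 and 9.49 in null (5.12-fold, SE 0.26, adjusted p = 0.00055). The skin list mean ranged from -0.73 to 0.82 in wild type and from -0.61 to 0.73 in null. Tgm1 lost its call once wild type pool 1 or 3 or null pool 2 or 3 was left out (adjusted p 0.078 to 0.12) and Tgm3 whichever pool was left out (adjusted p 0.053 to 0.099). No member was called of 8 nerve genes or of the 1 red cell gene tested by limma. At an unadjusted p under 0.05 lay 4 and 0 of them, against 16.3% of all tested genes.

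Some genes had probe sets that gave different answers. Of the 361 called genes 145 had another tested probe set, 228 in all, of which 202 had the same sign, 85 were called in the same direction and 6 in the opposite one. The other 216 called genes rest on 1 tested probe set. Of 63 probe sets called and more than 4-fold apart, 49 had 1 gene symbol, and 20 of these were not the brightest of their gene, 17 higher in null and 3 higher in wild type. The brightest probe set of the same gene was called in the same direction for 6 of the 20, in the opposite direction for 3 and not called for 11. These genes were chosen after their values were seen. The largest difference of the whole comparison was of this kind. A probe set of Phgdh, the first enzyme of serine synthesis, read 4.14, 4.06 and 3.85 in wild type and 10.63, 10.79 and 10.87 in null (108-fold, SE 0.30, adjusted p = 1.1e-06), while wild type at 24 h read 9.57, 11.03 and 10.49. The brightest Phgdh probe set read 10.83, 10.73 and 10.69 against 10.47, 10.65 and 10.63 (1.12-fold, adjusted p = 0.63), and the other 2 Phgdh probe sets differed by -0.07 and 0.01.

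In Uqcr10, a subunit gene of respiratory complex III, both dimmer probe sets were called higher in null. The first read 5.56, 5.25 and 5.18 in wild type and 10.18, 9.71 and 9.63 in null (22.8-fold, SE 0.30, adjusted p = 2.1e-05). The other read 6.05, 6.69 and 6.19 against 10.15, 9.86 and 9.63 (11.9-fold, SE 0.24, adjusted p = 2.2e-05). The brightest Uqcr10 probe set read 11.81, 11.77 and 11.60 against 12.23, 11.98 and 11.89 and was not called (1.24-fold, adjusted p = 0.25). For Xaf1, a pro-apoptotic interferon-induced gene, the dimmer probe set was higher in null (27.8-fold, SE 0.40, adjusted p = 7.9e-05) and the brightest higher in wild type (1.79-fold, SE 0.20, adjusted p = 0.045). Opposite calls within a gene were also found for Pgr, Zfp991, Mapk8, Tti2 and Dnajc16. For Zfp991 the second probe set was 6.15-fold higher in null. For Mapk8, a stress kinase gene with 4 tested probe sets, the dimmest was 5.55-fold higher in null. Besides its brightest, another Mapk8 probe set was called higher in wild type (2.02-fold, adjusted p = 0.0094). The remaining Mapk8 probe set differed by -0.05 (adjusted p = 0.83). Whether such differences lie in the level of a transcript form or in the sequence under the probes was not tested.

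**Figure D5:**
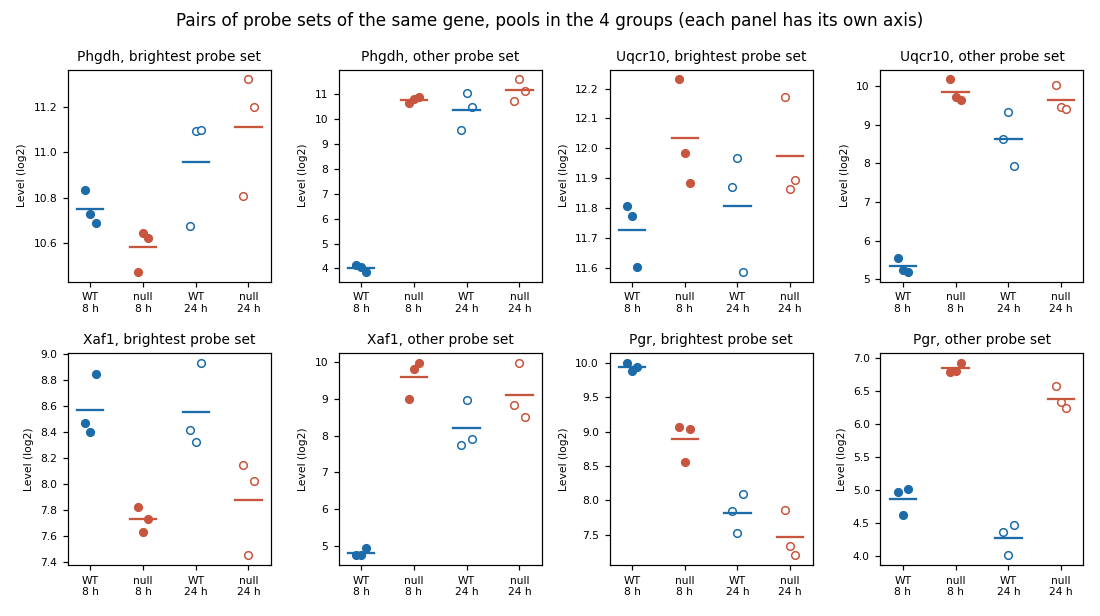
Levels (log2) of the brightest and another probe set of Phgdh, Uqcr10, Xaf1 and Pgr in the 4 groups, 1 point per pool, with bars at group means and a separate vertical scale in each panel. The other probe set of Phgdh lies near 4 in the wild type pools at 8 h and at 9.57 or above in the remaining 9 pools, whereas the brightest one stays between 10.47 and 11.32 in all 12.

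Called genes lay on each of chromosomes 1 to 19 and X. Chromosome 4 held the largest share, 6.02% of its 731 tested genes, 30 of them higher in wild type against 14 in null, and chromosome 17 the smallest, 1.05% of 574. Chromosome X had 3.39% of its 354 tested genes called, 10 in favour of wild type and 2 in favour of null. The shares to set beside these are those over all tested genes. There 3.01% were called, 1.59% in favour of wild type and 1.42% in favour of null.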

How the data were processed

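The data were 1 table of 12 Affymetrix arrays of mouse mammary gland RNA, 3 per group. The deposited values appear to be log2 levels, from their range of 2.22 to 14.7. MAS5 is named, with no role, per the submitters' processing notes; how the authors summarized and normalized the arrays is not given in the sources read here. Array medians lay between 5.84 and 5.91, so arrays were not rescaled. Names come from the platform annotation. Leaving controls aside, of 45037 probe sets 34945 had 1 symbol, 932 several and 9160 none, and only those with 1 symbol were named. The number of arrays limits the precision.

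Group means of all 12 arrays were fitted in limma 3.58.1 (R 4.3.3) with a trended prior, which gave 8 residual degrees of freedom, and wild type minus null at 8 h was tested. P-values measure the spread between pools. A gene was represented by its tested probe set of highest mean. The calculation was tested on simulated data for this comparison, with 200 of 23709 probe sets changed: it recovered 90% of the 2-fold changes and 48% of the 1.5-fold changes. The simulated noise was normal and independent between probe sets, at the fitted spreads, so shared shifts between pools were not part of it.

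The arrays and the 50 gene lists were chosen with earlier results of these data known, so a list's count is not independent evidence. Named were Pgr, the 30 largest called differences in each direction without overlap whose higher mean lay above the array medians, all tested mammary progesterone targets, and in each list every called member and up to 4 uncalled ones of largest difference; text names only some of these. Alternatives were other filters and priors, a floor on low values, centring, quantile normalization, weights per array, a fit of the 8 h arrays alone, 1 probe set per gene, a replicate block and each pool left out. Figures were drawn with matplotlib 3.10.9.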

Additional observations from a re-analysis of the deposited data

Results flagged for a closer look

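The genotype difference (wild type minus null, log2) of 9 of the genes named changed between 8 h and 24 h by the test of that change, at an adjusted p below 0.05 over all 23709 probe sets. It became more positive by 3.70 for Arg1, 4.91 for the antimicrobial peptide gene Defb1, 2.95 for Epgn, 2.92 for Padi4, 1.75 for Padi2, 1.67 for Id4 and 0.89 for Cldn4. It changed by -2.49 for Btn1a1 and by -1.96 for Ido1. At 8 h Arg1, Epgn, Padi4, Padi2, Cldn4 and Ido1 were called higher in null and Btn1a1 higher in wild type, whereas Defb1 (-1.04, adjusted p = 0.38) and Id4 (0.14, adjusted p = 0.78) were not called. Epgn and Padi4 passed the filter through the null pools at 8 h alone, which favoured a change between the times. No cause of these changes was tested.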

How the results depend on the processing

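The main counts were 729 probe sets (364 higher in wild type, 365 in null), 361 genes and 34 probe sets whose genotype difference changed between the times. With array weights they became 4017 (2051 and 1966), 2110 and 169. A stricter filter, above the median on all 12 arrays, tested 16 of those 34 probe sets and called 7 of them and no others, and it called 539 at 8 h. Under the other 9 settings on probe sets the count at 8 h stayed between 699 and 1042. Leaving out 1 pool gave 320 to 575 probe sets, 151 to 296 higher in wild type, 169 to 321 higher in null, 160 to 280 genes, and 12 to 24 for the change between times. No named difference changed its sign where it was called in the main fit or under the other setting. Sign changes of differences called in neither were not counted. Of 96 called genes named, 62 kept their call whichever pool was left out. Leaving out a wild type pool lost 26, 23 or 20 of them (pools 1, 2 and 3), and leaving out a null pool 21, 29 or 23. The cause of the rise with array weights was not tested.

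Pool numbers are shared by the groups, but same-numbered pools of the genotypes deviated from their group means with correlations of 0.13, -0.03 and -0.02, so they were not taken as pairs. With a replicate block 1042 probe sets (525 and 517) and 529 genes were called and 28 changed between the times; with the block and only the 8 h arrays 865 were called. Without the filter 7 of the named calls were lost, with only the 8 h arrays 8, with the block on those arrays 7, and with each other setting on all 12 arrays 0 to 6.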

Other observations

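Several further probe sets were called more than 4-fold apart at 8 h while a brighter probe set of the same gene was not called. They were chosen after their values were seen. Higher in null were dimmer probe sets of Pdxdc1 (8.09-fold, adjusted p = 0.0003), Cpne8 (6.20-fold, adjusted p = 0.00065), Snx6 (5.36-fold, adjusted p = 0.00034), Fars2 (5.35-fold, adjusted p = 0.00018) and Prune2 (4.01-fold, adjusted p = 0.017). Runx1, a transcription factor gene of blood and mammary cells, had one at a mean of 5.68 in wild type and 8.10 in null (5.35-fold, adjusted p = 4.8e-05), while its brightest differed by 0.27 (adjusted p = 0.39). Apod, a lipid carrier, had one 8.71-fold higher in null (adjusted p = 0.0084), and its brightest lay 2.50-fold higher in null without a call (adjusted p = 0.06). Pnpt1, a mitochondrial RNA-processing enzyme, had one 8.80-fold higher in wild type (adjusted p = 0.00055), and its brightest differed by -0.44 (adjusted p = 0.13). At 24 h the wild type means of the Pdxdc1 and Cpne8 probe sets were 7.80 and 6.44, against 5.05 and 4.65 at 8 h. These differences were not compared with probe positions.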
